A study of Bos taurus with 16 samples.

Results

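The malate-aspartate shuttle was followed across 16 bovine RNA sequencing libraries through 7 genes named for their place in it: the aminotransferases GOT1 and GOT2, the malate dehydrogenases MDH1 and MDH2, the oxoglutarate-malate carrier SLC25A11 and the aspartate-glutamate carriers SLC25A12 and SLC25A13. Of these 7 genes, 5 matched at least 1 accession among the 12429 genes with a symbol in the files, and MDH1 and SLC25A13 were not analysed here. The counts of all RefSeq accessions of a gene were summed and are given as CPM, the gene's share of the library total scaled to 1e6 counts. The set was chosen by role around GOT1, which was itself selected on its low p-value for treatment against control over all 16 libraries. Its treatment and control values are therefore a description, with no test, in all libraries and in subsets of them.

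Of the 16 libraries, 7 carry the label treatment and 9 the label control, and the labels do not say what treatment stands for. Per the series' design text, the cohort was 45 lactating Holstein cows, in which animals with metritis received ceftiofur, and the labels do not say which libraries come from those. Per the labels' protocols, the dominant follicle was aspirated 63 ± 3 days after calving, and the cells spun out of the aspirate were used. All cows were on the same ovulation synchronisation, with gonadotropin-releasing hormone and then prostaglandin, and aspiration took place 72 h after prostaglandin. The series title concerns the granulosa cell transcriptome after uterine disease has resolved, and the tissue field of every library reads blood. The labels do not tie libraries to single cows, so any p-value measures the spread between these libraries, which may in part be technical.

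The libraries were of 2 kinds. In 9, INHA, the alpha subunit of inhibin and a granulosa cell product, lay between 1759 and 3041 CPM, and these are called granulosa-rich (treatment replicates 4, 5, 6 and 7 and control replicates 2, 3, 4, 7 and 8). In the other 7, INHA lay between 0.404 and 111 CPM, and these are called leukocyte-rich (treatment replicates 1, 2 and 3 and control replicates 1, 5, 6 and 9). CD14, a lipopolysaccharide receptor found on monocytes, was at 5.32 to 332 CPM in the granulosa-rich and at 1859 to 4031 CPM in the leukocyte-rich libraries. In leukocyte-rich libraries pan-leukocyte markers summed to 5676 to 7175 CPM in treatment and 7181 to 8138 CPM in control. Theca and stroma markers summed to 400 to 10950 CPM in treatment and 525 to 2259 CPM in control there. Treatment replicates 1 and 2 held 7791 and 10950 CPM of these, and treatment replicate 1 also held 4122 CPM of granulosa markers. For erythroid cells, 4 of 5 markers were measured, and no library had a sum above 42.8 CPM. The kinds were set by INHA above 1000 or under 200 CPM and are not groups of the study, so levels by kind are a description. In such bulk samples, fewer cells of a type and less RNA per cell cannot be told apart. The files held 8111862 to 14348753 counts per library.

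The inner mitochondrial membrane does not let NADH pass, and the shuttle carries its electrons across in the form of malate. In the cytosol MDH1 reduces oxaloacetate to malate with NADH, and SLC25A11 brings malate into the mitochondrion in exchange for 2-oxoglutarate. There MDH2 regenerates NADH and oxaloacetate, GOT2 turns the oxaloacetate into aspartate, SLC25A12 or SLC25A13 exports the aspartate against glutamate, and GOT1 turns it back into oxaloacetate in the cytosol. The shuttle lets glycolysis run without ending in lactate, and in the follicle granulosa cells are known for an active glycolysis that feeds the oocyte.

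GOT1, the cytosolic aspartate aminotransferase (NM_177502.2, the single accession of the gene), differed more between libraries than GOT2 and SLC25A11 did. In granulosa-rich treatment libraries it was at 105 CPM in replicate 4, 159 CPM in replicate 5, 156 CPM in replicate 6 and 240 CPM in replicate 7. In granulosa-rich control libraries it was at 563 CPM in replicate 2, 116 CPM in replicate 3, 2571 CPM in replicate 4, 2259 CPM in replicate 7 and 649 CPM in replicate 8. Thus 4 of the 5 control libraries lay above all 4 treatment libraries, and control replicate 3 lay among the treatment libraries, so the groups overlapped.

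In leukocyte-rich treatment libraries GOT1 was at 156, 162 and 103 CPM in replicates 1, 2 and 3. In leukocyte-rich control libraries it was at 127, 141, 160 and 147 CPM in replicates 1, 5, 6 and 9. These groups overlapped, and all 7 values lay within a 1.57-fold range, against a 24.4-fold range over the 9 granulosa-rich libraries. Over the 16 libraries, 4 lay between 563 and 2571 CPM and the other 12 between 103 and 240 CPM. The lowest of the 4 stood 2.35-fold above the highest of the 12, and 2.3- to 2.47-fold with 3 other scalings of the libraries. In control replicate 4 GOT1 took up 0.257% of all counts, and in control replicate 7 it took up 0.226%.

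**Figure D1:**
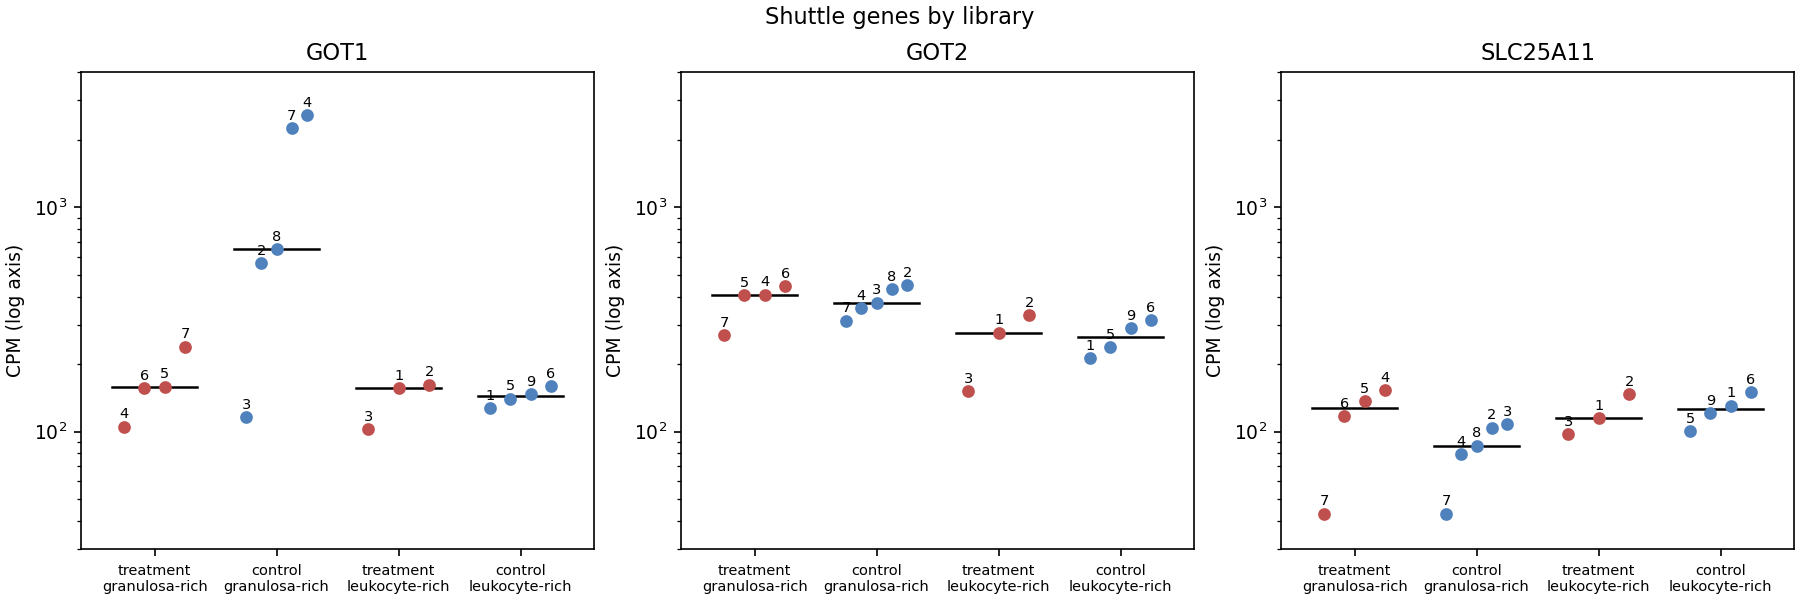
CPM (log axis) of GOT1, GOT2 and SLC25A11 in each library, by library kind and group, treatment in red and control in blue. Each point is 1 library with its replicate number, and lines are medians. GOT1 stands at 563 to 2571 CPM in 4 granulosa-rich control libraries and at 103 to 240 CPM in the other 12 libraries, while GOT2 and SLC25A11 overlap between treatment and control in both kinds.

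The fitted log2 fold change of GOT1, treatment over control, was -3.25 ± 0.89 (SE) in the 9 granulosa-rich libraries and -2.68 ± 0.84 (SE) over all 16. In the granulosa-rich libraries GOT1 averaged 165 ± 55.4 CPM in treatment (SD, n = 4) and 1232 ± 1105 CPM in control (SD, n = 5). Control replicates 4 and 7 carried much of that difference, which was -1.38 ± 0.59 (SE) without both. Over 16 libraries the value was -1.79 ± 0.74 (SE) with library kind as a covariate and -1.34 with limma-voom. In the 7 leukocyte-rich libraries the fitted value was -0.05 ± 0.16 (SE). Of 1583 genes with a mean of at least 100 CPM in the granulosa-rich control libraries, GOT1 had the 60th largest spread among those 5, with an SD of 1.81 on the log2 scale, against 0.371 for the median gene.

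Marker sums of other cell types are given beside GOT1, and in granulosa-rich libraries the ranges of treatment and control overlapped for every list. The 12 granulosa markers, all measured, summed to between 18790 and 83850 CPM in granulosa-rich treatment and between 70940 and 108100 CPM in granulosa-rich control libraries. The 10 pan-leukocyte markers, all measured, summed to between 269 and 952 CPM in treatment and between 16.2 and 1125 CPM in control. The sum of 10 measured monocyte and macrophage markers of 11 listed was 257 to 1355 CPM in treatment and 18.7 to 563 CPM in control, where CD163 and C1QB were at 0 in all 5 libraries. The 6 theca and stroma markers, all measured, summed to between 178 and 979 CPM in treatment and between 428 and 2943 CPM in control. Control replicate 3, the control library low in GOT1, had the highest sums of pan-leukocyte (1125 CPM), B and plasma cell (2710 CPM, 4 of 5 markers measured) and epithelial markers (3765 CPM, 6 of 6) of the 9. Treatment replicate 7 had the lowest granulosa marker sum, 18790 CPM, and the highest GOT1 of the treatment libraries. The part of these differences in the level of GOT1 was not tested.

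T and NK cell markers, 7 of 7 measured, summed to between 12.1 and 175 CPM in treatment and between 3.97 and 217 CPM in control. Neutrophil markers, 4 of 6 measured, summed to between 1.52 and 177 CPM in treatment and between 1.98 and 106 CPM in control. Oocyte markers, 4 of 5 measured, summed to between 2.87 and 24.0 CPM in treatment and between 1.98 and 19.8 CPM in control.

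GOT2, the mitochondrial aspartate aminotransferase (NM_174806.2), did not share the pattern of GOT1 among the granulosa-rich libraries. It was at 408, 405, 444 and 270 CPM in treatment replicates 4, 5, 6 and 7. It was at 449, 376, 356, 312 and 431 CPM in control replicates 2, 3, 4, 7 and 8. The groups overlapped over most of their range, and treatment replicate 7 was the lowest.

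In leukocyte-rich libraries GOT2 was at 276, 330 and 152 CPM in treatment replicates 1, 2 and 3. It was at 212, 238, 314 and 290 CPM in control replicates 1, 5, 6 and 9. The groups overlapped here as well, with treatment replicate 3 the lowest of all 16 libraries. The median of GOT2 was 405 CPM over the granulosa-rich and 276 CPM over the leukocyte-rich libraries.

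The ratio of GOT1 to GOT2 counts is not corrected for transcript length and is compared only between libraries. It lay between 0.258 and 0.888 in granulosa-rich treatment libraries. In granulosa-rich control libraries it was 1.25 in replicate 2, 0.309 in replicate 3, 7.23 in replicate 4, 7.24 in replicate 7 and 1.51 in replicate 8. In leukocyte-rich libraries it lay between 0.491 and 0.677 in treatment and between 0.507 and 0.600 in control. Counts of the cytosolic enzyme thus exceeded those of the mitochondrial one in 4 of 16 libraries, all of them granulosa-rich controls.

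SLC25A11, the carrier that exchanges malate for 2-oxoglutarate (NM_174671.2), was at 153, 137, 117 and 43.0 CPM in granulosa-rich treatment replicates 4, 5, 6 and 7. It was at 104, 108, 79.3, 43.1 and 86.7 CPM in granulosa-rich control replicates 2, 3, 4, 7 and 8. In CPM the 3 highest values were those of treatment libraries, but treatment replicate 7 was the lowest of the 9, so the groups overlapped. With TMM scaling SLC25A11 in control replicate 2 (107.1) lay above that in treatment replicate 6 (105.5). In leukocyte-rich libraries it lay between 97.4 and 147 CPM in treatment and between 101 and 150 CPM in control.

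SLC25A12, a calcium-regulated carrier that exports aspartate for glutamate, held few counts. Its 3 accessions together had 14, 4, 23 and 40 counts in granulosa-rich treatment replicates 4, 5, 6 and 7. They had 5, 17, 12, 1 and 0 counts in granulosa-rich control replicates 2, 3, 4, 7 and 8. In CPM this was 0.407 to 3.15 in treatment and 0 to 1.57 in control, where the library at 0 allows a level of up to 0.324 CPM (3 counts, counting error only). The groups overlapped, and the treatment libraries alone ran from 4 to 40 counts. Leukocyte-rich libraries held 11 to 18 counts in treatment and 8 to 16 counts in control.

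MDH2, the mitochondrial malate dehydrogenase, held 0 to 2 counts in every library (6 counts in all, accession NM_001013587.1), which is under the floor of 3 counts, and no fold is given. OGDH, the 2-oxoglutarate dehydrogenase that mitochondria need for the citric acid cycle, also held 0 to 3 counts in every library. Since cells with mitochondria use both enzymes, no level is read from these counts.

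Treatment and control were then compared by edgeR's quasi-likelihood test over all features, with Benjamini-Hochberg adjustment and a threshold of 0.05. Of the 7 genes, 4 passed the filter on low counts (GOT1, GOT2, SLC25A11 and SLC25A12). Over 16 libraries 0 of the 4 passed the threshold, beside 0% of 9653 features. At an unadjusted p under 0.05 there were 163 features (1.69%), GOT1 among them by the choice that made it the start of the set. DESeq2 called 0 features (301 at an unadjusted p under 0.05), and limma-voom called 0 (88).

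GOT2 had a fitted log2 fold change of -0.13 ± 0.26 (SE) over 16 libraries, SLC25A11 of 0.13 ± 0.23 and SLC25A12 of 0.92 ± 0.59, with an edgeR adjusted p of 0.9999 each. None of these 3 differences passed against the spread between libraries. The fitted values of 2 of the 4 genes were below 0 and those of 2 above it (median 0), beside 47.9% below, 52.1% above and a median of 0.01 over all features.

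In the 9 granulosa-rich libraries 0 of the 4 genes passed with edgeR, beside 0% of 9272 features (433, or 4.67%, at an unadjusted p under 0.05). limma-voom called 0 features (412 at an unadjusted p under 0.05), and DESeq2 called 26 features (639 at an unadjusted p under 0.05). GOT1 was among the 26, but it had been selected on the same contrast over libraries that include these 9, so nothing is read from its call. GOT2 was at -0.18 ± 0.22 (SE), SLC25A11 at 0.3 ± 0.35 and SLC25A12 at 1.51 ± 0.98, with an edgeR adjusted p of 0.983 or more. SLC25A12 apart, which rests on few counts, these values were smaller than their SE. The fitted values of 2 genes were below 0 and those of 2 above it (median 0.06), beside 47.1% below, 52.9% above and a median of 0.04 over all features. The CPM ranges of treatment and control overlapped for all 4 genes, while 0.55% of features lay lower and 1.18% lay higher in treatment without overlap.

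In the 7 leukocyte-rich libraries 0 of the 4 genes passed, beside 0% of 9912 features (259, or 2.61%, at an unadjusted p under 0.05 with edgeR). DESeq2 and limma-voom called 0 features too (344 and 277 at an unadjusted p under 0.05). GOT2 was at -0.08 ± 0.25 (SE), SLC25A11 at -0.08 ± 0.19 and SLC25A12 at 0.17 ± 0.48, with an edgeR adjusted p of 0.9996 each. Of the 4 genes, 3 had a value below 0 and 1 above it (median -0.06), beside 48.9% below, 51.1% above and a median of 0.01 over all features.

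**Figure D2:**
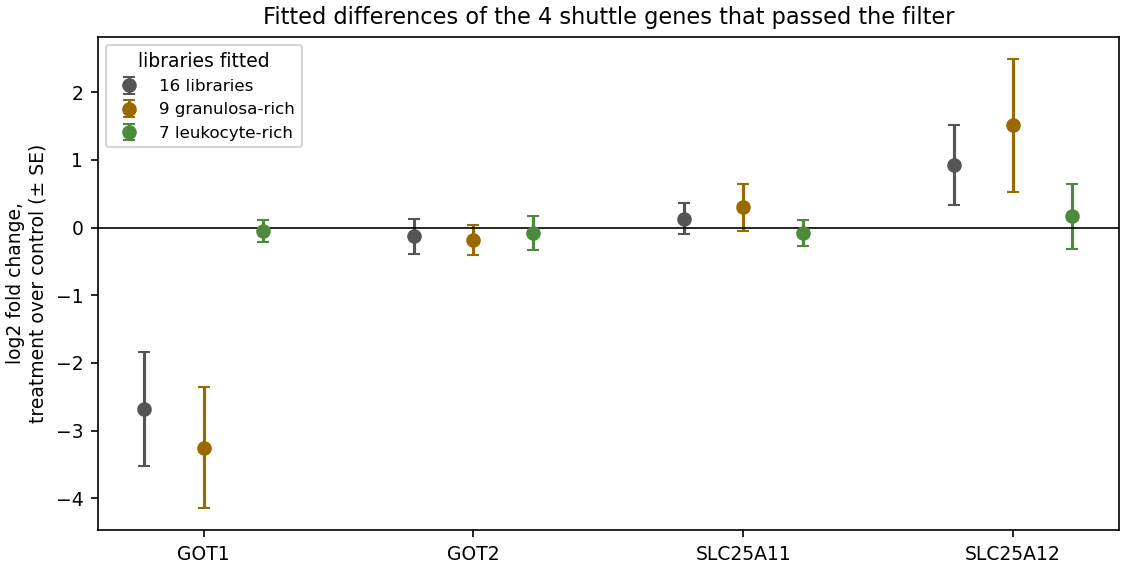
Fitted log2 fold change, treatment over control, with its SE (bars), of the 4 shuttle genes that passed the filter on low counts, in fits of all 16, the 9 granulosa-rich and the 7 leukocyte-rich libraries. GOT1 is at -2.68 and -3.25 in the first 2 fits and at -0.05 in the third, while the bars of GOT2 and SLC25A11 cross 0 in all 3. GOT1 was chosen for its value over 16 libraries.

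Whether the treatment difference was itself different between the 2 kinds of library was fitted as an interaction over 16 libraries. GOT1 had an interaction of -3.2 ± 1.03 (SE, log2), a lower fold change of treatment over control in granulosa-rich than in leukocyte-rich libraries. The treatment medians of GOT1 were 158 CPM in granulosa-rich and 156 CPM in leukocyte-rich libraries, and the control medians were 649 and 144 CPM. GOT2 was at -0.07 ± 0.34, SLC25A11 at 0.42 ± 0.45 and SLC25A12 at 1.38 ± 1.24. Thus 2 values were below 0 and 2 above it (median 0.18), beside 47% below, 53% above and a median of 0.06 over all features. With edgeR, 0 of the 4 passed, beside 0% of 11468 features (609, or 5.31%, at an unadjusted p under 0.05). DESeq2 called 31 features and 0 of the 4 genes (815 features at an unadjusted p under 0.05), and limma-voom called 0 (529). A difference in the effect between kinds was therefore not established for GOT2, SLC25A11 or SLC25A12. GOT1 was the 1 of the 4 at an unadjusted edgeR p under 0.05. It was selected on the treatment contrast over these libraries, so its interaction is a description and no difference is read from it.

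The genes whose levels followed GOT1 most closely over the 9 granulosa-rich libraries were sought among 4928 other genes, by Pearson's r of log2(CPM + 1). They were TLE1, a Groucho family transcriptional corepressor (r = 0.98), and PRPF19, a ubiquitin ligase of the spliceosome (r = 0.967). OAT, the mitochondrial ornithine aminotransferase that passes an amino group to 2-oxoglutarate (r = 0.964), GABARAPL1, a ubiquitin-like protein of autophagosomes (r = 0.964), and ISOC1 (r = 0.95) came next. Spearman's rho of the 5 lay between 0.867 and 0.95. The points share their libraries, depth and cell makeup, and the 5 are the highest of 4928 values, so these r are descriptions.

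Without control replicates 4 and 7, the r of TLE1, PRPF19, OAT, GABARAPL1 and ISOC1 with GOT1 over the other 7 libraries was 0.927, 0.962, 0.943, 0.925 and 0.879. PRPF19 was at 229, 275, 285 and 527 CPM in treatment replicates 4, 5, 6 and 7. It was at 720, 215, 1765, 1031 and 688 CPM in control replicates 2, 3, 4, 7 and 8. Control replicate 3 was again low, here below all treatment libraries of this kind. Over all granulosa-rich libraries the other members of the shuttle did not follow GOT1, with r = -0.270 for GOT2 and r = -0.593 for SLC25A11. With TMM-scaled values (TMM factors of 0.809 and 0.614 in control replicates 4 and 7) these became 0.530 and -0.306.

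**Figure D3:**
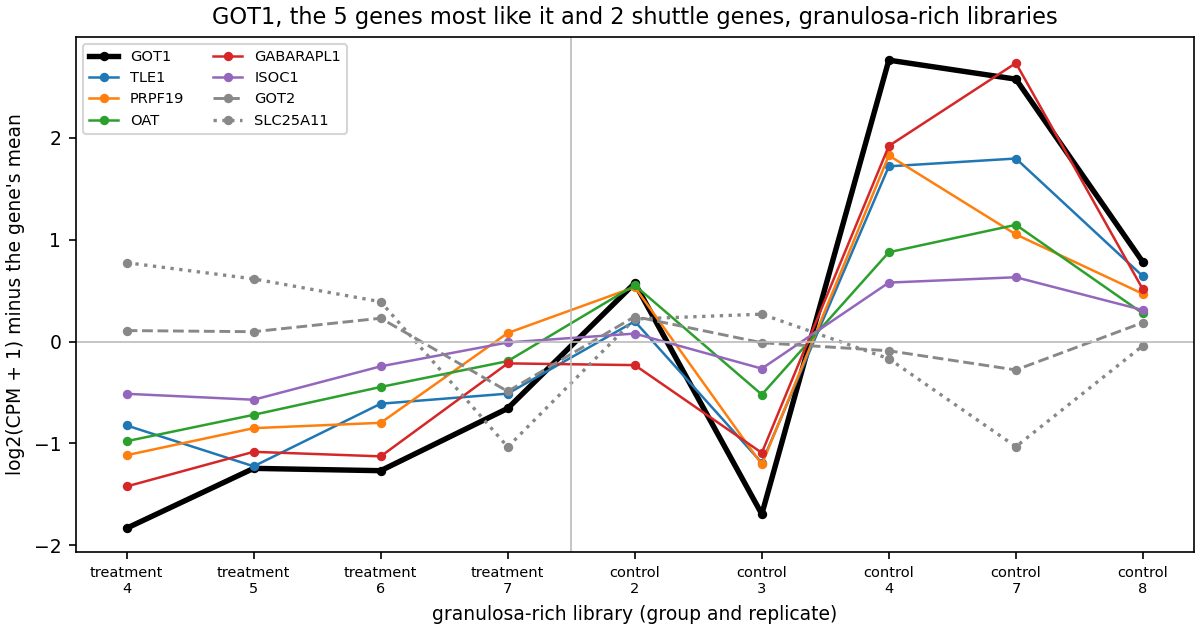
log2(CPM + 1) minus the gene's mean over the 9 granulosa-rich libraries, for GOT1 (thick black), the 5 genes most like it (thin colours), GOT2 (dashed grey) and SLC25A11 (dotted grey). The x axis gives treatment libraries and then control libraries by replicate. GOT1 and the 5 genes are high in control replicates 4 and 7 and low in control replicate 3, while GOT2 stays near its mean.

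In the 7 leukocyte-rich libraries, where GOT1 varied little, GOT2 was the second most like GOT1 of 4928 genes (r = 0.983, 0.973 with TMM scaling). SLC25A11 had r = 0.666 there. Control replicate 1 and treatment replicate 3 lay farthest from the median of GOT1. Without these, over 5 libraries, the r of GOT2 was 0.882 and that of SLC25A11 was 0.873, so the 2 were alike there.

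Genes of the reactions next to the shuttle were taken from 4 lists. Of 22 glutamate and aspartate genes, 20 were in the files and 15 were tested in the granulosa-rich libraries. Of these, 8 lay below 0 and 7 above it for treatment over control (median -0.14). Of all features, 47.1% lay below 0 and 52.9% above it (median 0.04). With edgeR 0 of the 15 passed, beside 0% of all features (3 at an unadjusted p under 0.05, GLUL among them, beside 4.67%). The median of the list was 0.12 without control replicate 7. OAT was at 2217, 2653, 3207 and 3824 CPM in treatment replicates 4, 5, 6 and 7. It was at 6407, 3045, 8024, 9669 and 5289 CPM in control replicates 2, 3, 4, 7 and 8. As for GOT1, all controls but replicate 3 lay above the treatment libraries, and the fitted log2 fold change was -1.4 ± 0.44 (SE, edgeR adjusted p = 0.983).

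GLUL, the glutamine synthetase that uses up glutamate, had a fitted value above 0. It was at 418, 91.7, 68.7 and 46.3 CPM in treatment and at 39.1, 86.8, 27.4, 39.4 and 64.4 CPM in control, in the same order of replicates. The fitted log2 fold change of 1.41 ± 0.58 (SE) did not pass, and it was 0.37 without treatment replicate 4. In leukocyte-rich libraries GLUL lay between 411 and 659 CPM. Treatment replicate 4 had the highest monocyte and macrophage marker sum of the granulosa-rich libraries (1355 CPM), and its part in the level of GLUL was not tested. GLUD1, the glutamate dehydrogenase, lay between 120 and 306 CPM in granulosa-rich and between 679 and 1060 CPM in leukocyte-rich libraries.

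Of 7 genes of other NADH shuttles and lactate formation, 6 were tested in the granulosa-rich libraries, where 4 lay below 0 and 2 above it (median -0.01) and 0 passed with edgeR (1, LDHA, at an unadjusted p under 0.05, beside 4.67% of all features). Of all features, 47.1% lay below 0 and 52.9% above it (median 0.04), and 0% passed with edgeR. LDHA, the lactate dehydrogenase subunit that consumes cytosolic NADH, was at 58.1, 16.6, 61.1 and 64.0 CPM in treatment replicates 4, 5, 6 and 7. It was at 143, 144, 117, 126 and 104 CPM in control replicates 2, 3, 4, 7 and 8. LDHA was the only gene of the 4 lists whose groups did not overlap, and 0.55% of the features tested lay lower in treatment without overlap. Its log2 fold change was -1.59 ± 0.35 (SE, edgeR adjusted p = 0.983), and with DESeq2 the gene passed the threshold (adjusted p = 0.0286). Unlike GOT1, LDHA was not low in control replicate 3. In leukocyte-rich libraries LDHA lay between 199 and 540 CPM in treatment and between 72.5 and 531 CPM in control, with overlap. Its fitted log2 fold change was 0 ± 0.67 (SE) there and -0.46 ± 0.59 (SE) over 16 libraries. GPD2, the mitochondrial enzyme of the glycerol phosphate shuttle, was at -0.82 ± 0.64 (SE). CYB5R3 and CYB5R1, which oxidise NADH at membranes, lay between 95.5 and 228 CPM and between 31.0 and 72.9 CPM in granulosa-rich libraries.

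**Figure D4:**
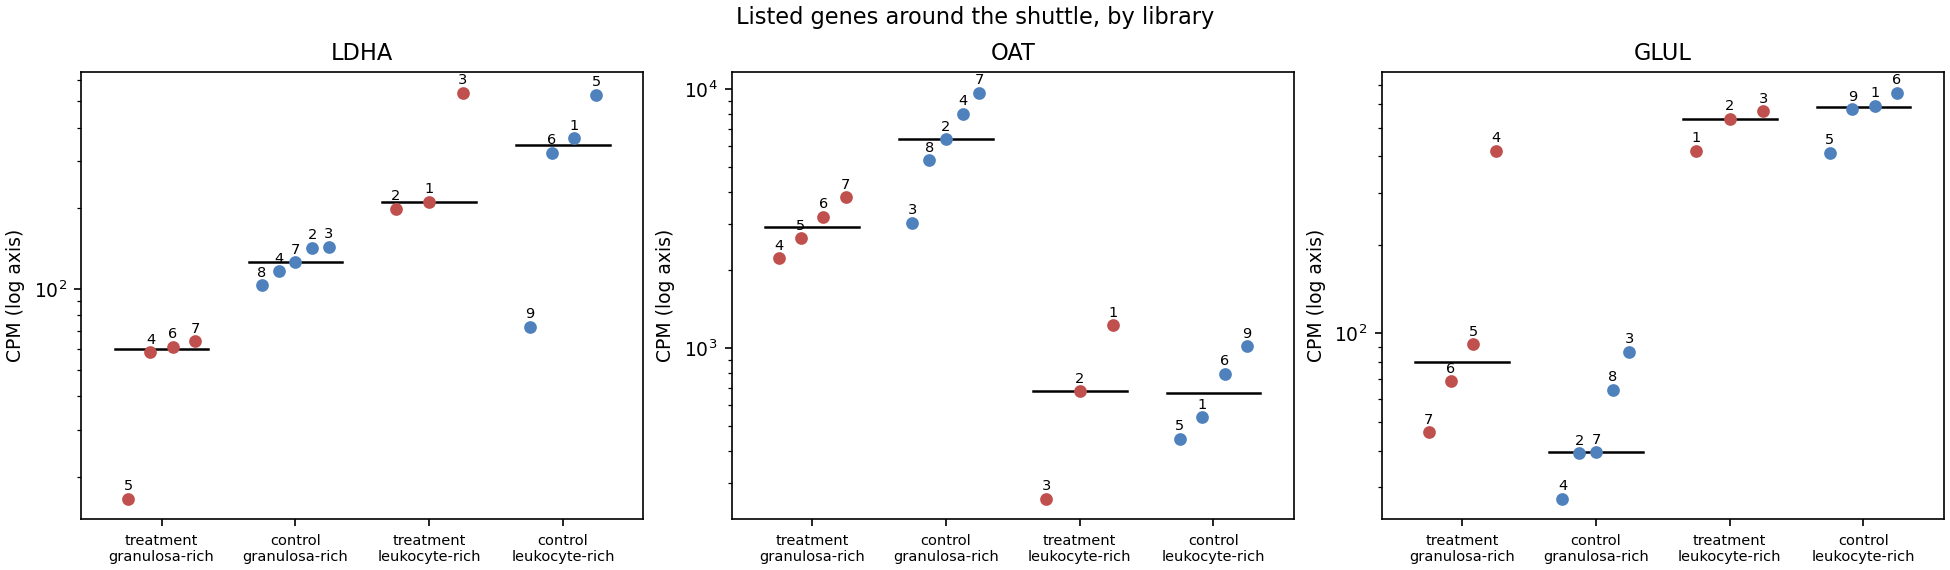
CPM (log axis) of LDHA, OAT and GLUL in each library, by library kind and group, treatment in red and control in blue, with replicate numbers and medians (lines). In granulosa-rich libraries LDHA is at 16.6 to 64.0 CPM in treatment and at 104 to 144 CPM in control, and OAT is highest in the control libraries other than replicate 3.

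Of 12 genes for malate, oxaloacetate and fumarate, 11 were in the files and 8 were tested in the granulosa-rich libraries, with 4 lower, 4 higher, a median of 0.01 and 0 past the threshold. Beside these, 47.1% of all features lay lower and 52.9% higher, with a median of 0.04 and 0% past the edgeR threshold. The malic enzyme ME1, which makes NADPH from malate in the cytosol, lay between 246 and 418 CPM in granulosa-rich and between 1.01 and 25.1 CPM in leukocyte-rich libraries. Its mitochondrial relative ME3 lay between 15.4 and 136 CPM and between 0.884 and 10.4 CPM in the same kinds. PCK2, the mitochondrial phosphoenolpyruvate carboxykinase, lay between 3.49 and 22.2 CPM in granulosa-rich and between 75.8 and 121 CPM in leukocyte-rich libraries. Treatment and control of the granulosa-rich libraries differed by -0.37 ± 0.32 (SE, log2) for ME1. For the pyruvate carboxylase PC the value was 1.08 ± 0.83, which was -0.19 without treatment replicate 7.

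Of 8 genes of the mitochondrial 2-oxoglutarate side, 7 were tested in the granulosa-rich libraries, with 5 lower, 2 higher, a median of -0.08 and 0 past the threshold. Beside these, 47.1% of all features lay lower and 52.9% higher, with a median of 0.04 and 0% past the edgeR threshold. IDH3A, the catalytic subunit of the NAD-dependent isocitrate dehydrogenase, lay between 133 and 1737 CPM in granulosa-rich and between 109 and 201 CPM in leukocyte-rich libraries. IDH2, the NADP-dependent mitochondrial enzyme, was at 0.58 ± 0.39 (SE, log2) in treatment over control. DLD and DLST, subunits of the 2-oxoglutarate dehydrogenase complex, lay between 150 and 329 CPM and between 64.0 and 281 CPM in granulosa-rich libraries.

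Over all 16 libraries, 0 genes of the 4 lists passed the edgeR threshold, beside 0% of 9653 features. The median log2 fold change was -0.38 for the other NADH shuttle and lactate genes, -0.15 for the malate, oxaloacetate and fumarate genes, and -0.06 for the other 2 lists, beside 0.01 over all features.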

How the data were processed

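RNA was measured in 16 libraries. The authors deposited whole-number read counts per RefSeq accession, not normalized, 1 file per library. Per the labels' protocols, poly(A) RNA from 200 ng of total RNA (integrity number of at least 7) was amplified for 12 cycles in an unstranded library kit, which leaves reads of overlapping antisense genes unresolved. The tools listed, per the submitters' processing notes, are cutadapt, Bowtie2 and SAMtools. Not given in the sources used here are versions, the genome build and how reads with several matching transcripts were counted, so near-identical copies are uncertain.

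An accession missing from a file was taken as 0. Of 27306 accessions, 133 genomic records (0.712 to 1.92% of a library) were left out. Only names were taken from RefSeq's table of ARS-UCD2.0, where 18973 of 27173 accessions matched when versions were ignored. Sums per gene and 8200 unmatched transcripts gave 20629 features.

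Treatment was compared with control by edgeR 4.0.16 (R 4.3.3, quasi-likelihood test, robust, TMM scaling, features filtered by filterByExpr, no covariate), with Benjamini-Hochberg adjustment over all features. SE was obtained from the fitted change and the root of its F statistic. Without the genomic records, depth of 8004595 to 14138964 counts sets the floor of 3 counts at 0.212 to 0.375 CPM. The test was tried on simulated counts with known changes. The simulation gave every feature the same spread and had no library kinds, so it does not tell the power of the test in these libraries. Alternatives were DESeq2 1.42.0, limma-voom (limma 3.58.1), other scalings and filters, the replicate number as a block, library kind as a covariate and each library left out.

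The members, lists and tests were chosen with earlier results of these data known. The text names the 7 genes, from each list the 3 with the highest mean CPM and the 2 with the lowest p in the granulosa-rich libraries, and the 5 genes with the highest r with GOT1 where the mean log2(CPM + 1) reached 3. A gene that this rule names is not reported here. Likeness over all 16 libraries is not given, since they fall into 2 kinds, and was given within each kind. OGDH, NGDN and the other genes opposite to GOT1 were chosen after their values were seen.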

Additional observations from a re-analysis of the deposited data

How the results depend on the processing

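Of 343 alternative values for the 4 tested shuttle genes over the 4 fits, 331 kept their direction and their side of the threshold. For the 8 genes named for the lowest p of their list, 156 of 159 values in the granulosa-rich fit did so. List genes named only for their level were not put through these alternatives. GOT1 was selected on the treatment contrast over these libraries, and the alternatives refit them, so its values here are a description. GOT1 kept its direction in all 72 alternatives outside the leukocyte-rich fit. Its log2 fold change without single libraries lay between -2.84 and -2.06 over 16 libraries and between -3.55 and -2.75 in the granulosa-rich ones. With limma-voom it was -1.34 over 16 libraries, and with library kind as a covariate -1.79.

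With the DESeq2 test 26 features passed in the granulosa-rich libraries, 1 of them a shuttle gene, GOT1, which was selected on this contrast, so its call is a description. LDHA passed there at -1.6 (adjusted p = 0.0286). DESeq2 also called 31 features for the difference between kinds. The cause was not tested. No library left out made edgeR call a feature in any of the 4 fits.

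In the leukocyte-rich libraries, leaving out single libraries gave GOT1 -0.14 to 0.09, GOT2 -0.29 to 0.14, SLC25A11 -0.22 to 0.02 and SLC25A12 -0.07 to 0.43. For the difference between kinds GOT2 lay between -0.32 and 0.12 and was at 0.05 with library size alone. In the granulosa-rich libraries PC lay between -0.19 and 1.44, and ME1 was at 0.04 without control replicates 4 and 7, a choice made after seeing the data.

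With the replicate number as a block GOT1 was at -1.28 over the libraries of the 7 shared numbers, which leaves out control replicates 8 and 9. In the granulosa-rich libraries only 2 numbers, 4 and 7, are shared, and GOT1 was at -4.48 and SLC25A11 at -0.08. The controls kept there, replicates 4 and 7, are the 2 libraries with the most GOT1 (2571 and 2259 CPM). The block left 0 calls in both fits. Same-numbered libraries had correlations of -0.605 to 0.605, 3 of 7 pairs were over 0.1, and 0 of 7 treatment libraries correlated best with their own number. Library kind was not removed from these values, and the 3 pairs (numbers 1, 4 and 7) were those with both libraries of the same kind. The correlations therefore cannot decide on pairing. The labels do not state that the numbers pair animals, so the numbers were not taken as pairs. No paired analysis was possible in the leukocyte-rich libraries because their groups share 1 number. Low counts limit SLC25A12 and MDH2.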

Other observations

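Among the same 4928 genes, those that ran most opposite to GOT1 over the 9 granulosa-rich libraries were NGDN (r = -0.972), RHOG (r = -0.966), TINF2 (r = -0.966), PML (r = -0.965) and C7H19orf25 (r = -0.964). NGDN was at 69.0, 70.3, 58.0 and 59.0 CPM in treatment replicates 4, 5, 6 and 7. It was at 46.9, 60.1, 30.8, 28.4 and 41.5 CPM in control replicates 2, 3, 4, 7 and 8. The 2 control libraries with the most GOT1, replicates 4 and 7, also had 2 of the 3 lowest TMM factors (0.809 and 0.614). These r rest on CPM without TMM scaling and were not obtained with it, so their dependence on scaling was not tested. For GOT2, TMM scaling moved the r with GOT1 from -0.270 to 0.530. The r of the opposite genes are the extremes of 4928 values and are descriptions.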
